A study of Mus musculus with 10 samples.

Results

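Interleukin-6 and its relatives are cytokines that share the receptor chain gp130. The 10 genes described here make up that axis: 4 ligands (Il6, Lif, Osm and Il11), 4 receptor chains (Il6st, which encodes gp130, with Il6ra, Lifr and Osmr), the transcription factor gene Stat3 and the feedback inhibitor gene Socs3. They were chosen by name as known parts of the pathway, and all 10 had a row among the 23276 named rows, and the 30431 rows in all, of the authors' tables. RNA came from whole kidneys, taken from 10 mice at postnatal day 21. The DM group held 3 mice with Pkhd1Cre, both Pkd2 alleles floxed and the genotype miR-21null, that is, without the miR-21 gene. The SM group held 3 mice with Pkhd1Cre and both Pkd2 alleles floxed, so DM and SM share the Cre and the Pkd2 deletion. The WT group held 4 mice labelled wild-type, and the labels do not say whether these carried the Cre or a floxed allele. Pkhd1Cre is known as a driver of the collecting duct, so a whole kidney also holds many cells outside its range. In such a mixture, fewer cells of a type and less RNA per cell cannot be told apart.

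A cytokine of this family binds its own receptor chain, which then pairs with gp130. Kinases of the JAK family bound to the receptors phosphorylate STAT3, which enters the nucleus and switches on target genes. One of these targets is Socs3, whose protein binds gp130 and the kinases and damps the signal. In kidney the axis is known from tubular injury, and STAT3 activity is known in cystic epithelium. Stat3 and miR-21 are also linked in the literature, since STAT3 can activate the miR-21 gene in human tumour cells.

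The authors deposited comparisons of groups and no value per library was used here, so levels are given per group and without a spread over animals. Levels are in CPM, read counts scaled to a common library size, computed from the deposited average and fold changes, and they are given per kb of exon wherever genes are compared. That average was read as the log2 of the mean CPM; read as a mean of logs, it gives levels 1.60 times higher for Socs3, 2.49 times for Lif and 3.13 times for Il6 in every group, with the same fold changes. The error of a fold change is the standard error (SE) that its likelihood ratio test implies. A gene is called where edgeR's likelihood ratio test, adjusted over all rows, gave an adjusted p below 0.05. All 8 kidney markers examined (Umod, Slc34a1, Slc12a1, Slc12a3, Aqp2, Nphs1, Lrp2 and Cdh16) averaged over 1 CPM, and their summed level was 9158 CPM in DM, 8466 CPM in SM and 14810 CPM in WT. Of these, 4 were called lower in DM against WT and 5 in SM against WT by the authors' deposited tables, and none higher. Of all rows, 5.92% were called lower in DM against WT and 6.09% in SM against WT. Of rows averaging at least 1 CPM, 19.8% and 21.6% were called in either direction. Slc34a1, a phosphate transporter of the proximal tubule, was at 0.397-fold the WT level in DM and 0.370-fold in SM, while Umod, Aqp2 and Cdh16 were called in neither. The part of these cells in the values below was not tested.

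Kidneys of both mutant groups held more mRNA of all 4 ligands, of Osmr, of Stat3 and of Socs3 than wild-type kidneys. Il6st and Il6ra were also called higher in SM, and Lifr was called lower in DM. In DM against WT, the authors' deposited table called 8 of the 10 genes, of which 7 were higher and 1 was lower. Of all 30431 rows, 13.5% were called in that comparison, 7.55% higher and 5.92% lower. In SM against WT, 9 of the 10 were called by the authors' deposited table, all of them higher. The share of all rows called there was 14.0%, with 7.87% higher and 6.09% lower. Where the average reached 1 CPM, as it did for 8 of these genes, 19.8% were called in DM against WT and 21.6% in SM against WT. Of those 8 genes, 6 were called in DM against WT and 7 in SM against WT by the authors' deposited tables. The median log2 fold change of the 10 genes was 1.53 in DM against WT and 1.51 in SM against WT, while the median of all rows was 0.0 in both. These comparisons share the WT libraries.

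**Figure D1:**
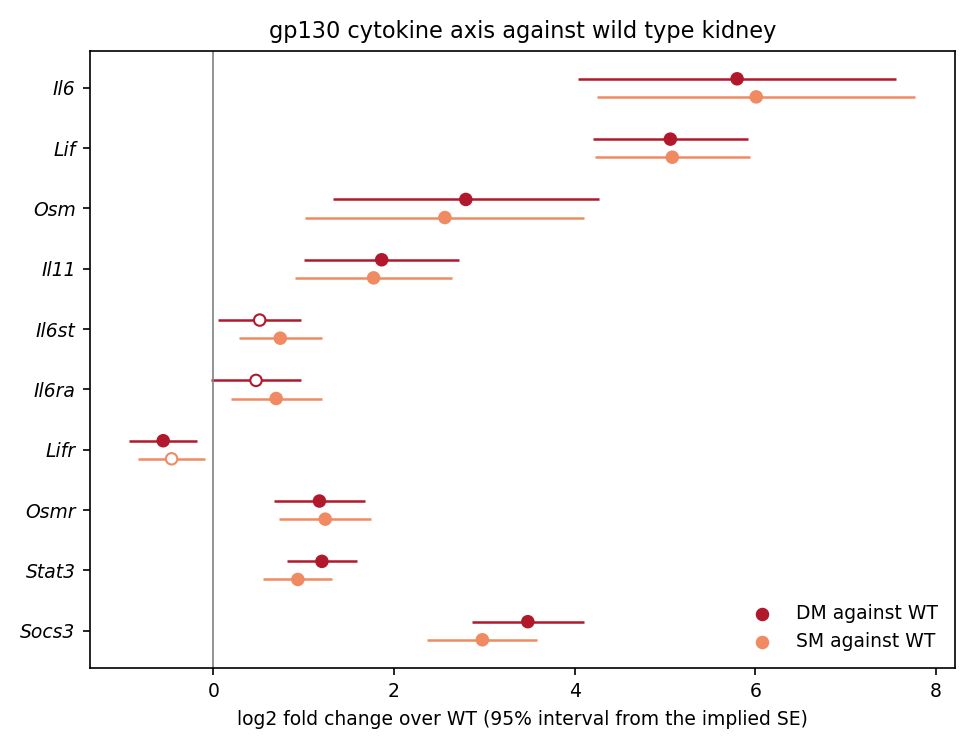
Log2 fold change over WT (horizontal axis) of the 10 genes, in DM (dark red, upper of each pair) and SM (orange, lower), with 95% intervals from the implied SE. Filled points passed an adjusted p below 0.05 and open points did not. The ligands Il6 and Lif lie farthest right, at 5.80 and 5.06 in DM, and Lifr alone lies left of 0.

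Lif, leukaemia inhibitory factor, had the smallest adjusted p of the ligands. The gene lies at 4257557 to 4272514 on chromosome 11 (GRCm38), on the forward strand. Its level was 11.6 CPM in DM and 11.7 CPM in SM, against 0.347 CPM in WT. The authors' deposited table gave a log2 fold change of 5.06 for DM against WT, with an implied SE of 0.44 (adjusted p = 1.28e-27). For SM against WT the authors' deposited table gave 5.08, with an implied SE of 0.44 (adjusted p = 1.03e-27). The mutant kidneys thus held 33.3-fold (DM) and 33.8-fold (SM) the wild-type amount, with 95% intervals of 18.4 to 60.3-fold and 18.65 to 61.3-fold.

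Il6, the founding member of the family (chromosome 5, 30013114 to 30019981, forward strand), was scarce in every group. Its level was 0.678 CPM in DM and 0.785 CPM in SM, against 0.0122 CPM in WT. The WT value is under 0.0514 CPM, the average the tables give to a row without reads, so the size of the fold depends on the small count that the fit adds and is no bound. With that limit, the authors' deposited table gave a log2 fold change of 5.80 (with implied SE 0.90 and adjusted p = 1.22e-08) for DM against WT. The value for SM against WT by the authors' deposited table was 6.01 (with implied SE 0.90 and adjusted p = 2.53e-09). Both mutant groups lay above WT, and Il6 stayed under 1 CPM in both.

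Osm, oncostatin M, is a cytokine known from macrophages, neutrophils and T cells, and its gene (chromosome 11, 4236420 to 4241026, forward strand) neighbours Lif. It was the scarcest ligand per kb in the mutants, with 0.143 CPM per kb in DM and 0.122 CPM per kb in SM. In WT it was at 0.0207 CPM per kb, which as 0.0470 CPM is also under the level of a row without reads. The authors' deposited table gave log2 fold changes of 2.79 (with implied SE 0.75 and adjusted p = 0.00316) in DM against WT. In SM against WT, the authors' deposited table had 2.56 (with implied SE 0.79 and adjusted p = 0.012). The fold of this gene, like that of Il6, is no bound.

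Il11, interleukin-11, is a cytokine known from fibroblasts and injured epithelium (chromosome 7, 4772373 to 4782859, reverse strand). It stood at 1.71 CPM in DM and 1.60 CPM in SM, against 0.469 CPM in WT. The authors' deposited table gave a log2 fold change of 1.86 (with implied SE 0.44 and adjusted p = 4.91e-04) in DM against WT. The SM value was 1.77 (with implied SE 0.44 and adjusted p = 0.00118) in the table the authors deposited for SM against WT. Per kb of exon, the order of the ligands in both mutant groups was Lif, Il11, Il6 and Osm, with Lif at 2.66 CPM per kb in DM and 2.70 CPM per kb in SM. In WT, Il11 at 0.226 CPM per kb was above Lif at 0.0798 CPM per kb. The spread behind this order is not known, and with the average read as a mean of logs Il6 lies above Il11 in SM.

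**Figure D2:**
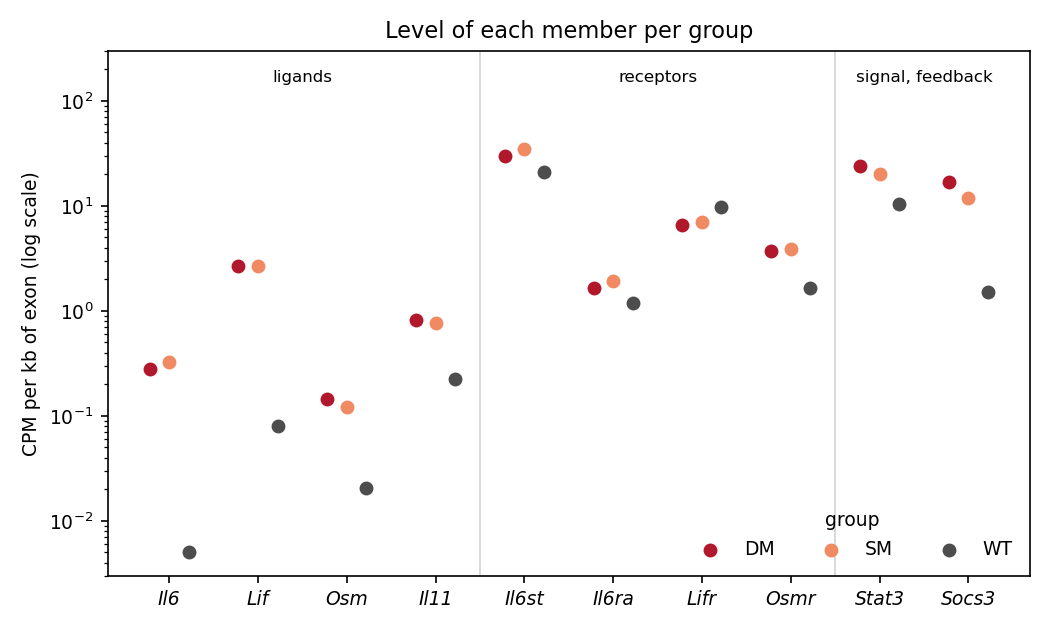
Level of the 10 genes in CPM per kb of exon (vertical axis, log scale) in DM (dark red), SM (orange) and WT (grey), ordered as ligands, receptor chains, and Stat3 with Socs3. Each point is 1 group level without an error. WT is the lowest group for every gene but Lifr, and Il6st has the highest level in each group, at 29.8 in DM, 34.8 in SM and 20.9 in WT.

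The receptor chains changed less than the ligands, and not all in the same direction. Osmr, the oncostatin M receptor (chromosome 15, 6813577 to 6874969, reverse strand), stood at 45.4 CPM in DM and 47.4 CPM in SM, against 20.1 CPM in WT. Its log2 fold change by the authors' deposited table was 1.17 (with implied SE 0.26 and adjusted p = 1.59e-04) in DM against WT. It was 1.24 (with implied SE 0.26 and adjusted p = 5.15e-05) for SM against WT by the authors' deposited table. Lifr, the LIF receptor, lies beside Osmr on chromosome 15 (7090614 to 7197489, forward strand) and went the other way. Its level was 70.9 CPM in DM and 75.6 CPM in SM, against 104 CPM in WT. In the authors' deposited table Lifr had a log2 fold change of -0.56 (with implied SE 0.19 and adjusted p = 0.0308) in DM against WT, where it was called lower. SM against WT did not pass, at -0.46 (with implied SE 0.19 and adjusted p = 0.0901) by the authors' deposited table. Per kb, Lifr was at 1.76 times the level of Osmr in DM and 1.79 times in SM, against 5.83 times in WT. Both chains are known to pair with gp130, and the mouse OSM protein is known to signal mainly through OSMR.

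Il6st (chromosome 13, 112464070 to 112510086, forward strand) was the most abundant of the 10 genes, at 330 CPM in DM and 387 CPM in SM, against 231 CPM in WT. In SM against WT it rose by 0.74 on the log2 scale (with implied SE 0.23 and adjusted p = 0.0156) by the authors' deposited table. The DM value was 0.51 (with implied SE 0.23 and adjusted p = 0.146) by the authors' deposited table and did not pass. Il6ra, the chain specific for interleukin-6 (chromosome 3, 89864059 to 89913196, reverse strand), had 14.2 CPM in DM and 16.5 CPM in SM, against 10.2 CPM in WT. It was called in SM against WT close to the threshold, at 0.70 (with implied SE 0.26 and adjusted p = 0.0484) by the authors' deposited table. Its log2 fold change in DM against WT was 0.47 (with implied SE 0.26 and adjusted p = 0.256) by the authors' deposited table. Per kb, Il6st exceeded Il6ra 18.1-fold in DM, 18.2-fold in SM and 17.6-fold in WT. Genes of the sheddases Adam10 and Adam17, which are known to release Il6ra from the cell surface, were called in 0 of 2 cases in either comparison with WT by the authors' deposited tables.

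Stat3 (chromosome 11, 100885098 to 100939540, reverse strand) was abundant in every group, at 229 CPM in DM and 190 CPM in SM, against 99.4 CPM in WT. These levels are 2.30-fold (95% interval 1.76 to 3.00) and 1.91-fold (1.47 to 2.49) that of WT. The adjusted p by the authors' deposited tables was 7.27e-08 for DM against WT and 5.26e-05 for SM against WT. Of the kinases upstream of it, Jak1, Jak2 and Tyk2 had log2 fold changes between 0.21 and 0.36 in DM against WT and between 0.16 and 0.36 in SM against WT by the authors' deposited tables. None of these 3 was called, with implied SEs up to 0.22.

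Socs3 (chromosome 11, 117966079 to 117970047, reverse strand) is a known target gene of STAT3. Only mRNA was measured here, and the part of STAT3 in the level of Socs3 was not tested. It stood at 48.6 CPM in DM and 34.3 CPM in SM, against 4.36 CPM in WT. In DM against WT the log2 fold change by the authors' deposited table was 3.48 (with implied SE 0.32 and adjusted p = 4.18e-25), an 11.2-fold higher level. For SM against WT it was 2.98 (with implied SE 0.31 and adjusted p = 5.88e-19) by the authors' deposited table, a 7.88-fold higher level. Among the 10 genes, Socs3 had the third largest change, after Il6 and Lif. Per kb it was at 16.8 CPM in DM, 11.9 CPM in SM and 1.51 CPM in WT, below Stat3 in all 3 groups, but with the average read as a mean of logs it lies above Stat3 in DM.

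The Socs3 promoter is shown because STAT3 is known to act on it through a palindromic word. The window is chr11:117969317-117969616 on GRCm38.p6, reverse strand, from 250 bases before to 50 bases after the start of the gene in RefSeq. The GENCODE span given above for Socs3 reaches further upstream, to 117970047, so the whole window lies inside that span. Capitals mark the only match to TTCNNNGAA, a word that reads the same on both strands, 154 to 146 bases before the RefSeq start. Whether the marked stretch is the word that STAT3 acts on was not tested.

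Socs3 promoter: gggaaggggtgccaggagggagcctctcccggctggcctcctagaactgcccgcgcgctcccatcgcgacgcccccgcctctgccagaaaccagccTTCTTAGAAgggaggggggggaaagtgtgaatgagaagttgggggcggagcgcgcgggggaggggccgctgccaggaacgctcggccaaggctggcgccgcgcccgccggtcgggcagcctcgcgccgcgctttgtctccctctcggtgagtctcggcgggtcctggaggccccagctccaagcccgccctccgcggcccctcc

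RefSeq promoters were matched for 9 of the 10 genes, all but Osm, with 11 windows in total. The stricter word TTCCNGGAA, every match of which also matches TTCNNNGAA, was in 0 of the 11 windows and in 1.15% of all 32851 promoters of that length. TTCNNNGAA was in 1 of the 11, that of Socs3, and in 8.30% of all promoters. A match is a description of the sequence only.

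DM and SM differ in the miR-21 genotype and share Pkhd1Cre with floxed Pkd2, and in DM against SM 0 of the 10 genes passed edgeR's likelihood ratio test in the authors' deposited table. At an unadjusted p under 0.05 the number was also 0, and no other tool could be run on these tables. The share of all rows called was 0.0789%, and 0.0859% of those that averaged 1 CPM or more, so few calls of any kind were made. The log2 fold changes of the 10 genes ranged from -0.23 for Il6st to 0.50 for Socs3 by the authors' deposited table, with an adjusted p of 1.0 for each.

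The 95% intervals show what these data can and cannot resolve. For Stat3, the interval of the DM against SM difference ran from -0.15 to 0.68 on the log2 scale, around 0.27 by the authors' deposited table. Socs3 had the widest room upward among the genes with an average above 10 CPM, from -0.12 to 1.13. Lif was at -0.02 by the authors' deposited table, with an interval from -0.79 to 0.75, which as a ratio of DM to SM is 0.578 to 1.68. Osmr ran from -0.61 to 0.48 and Lifr from -0.49 to 0.30. The scarce ligands were the least certain, with -1.38 to 0.96 for Il6 and -0.99 to 1.45 for Osm. In DM, Il6st and Il6ra were not called against WT while they were called in SM, but their DM against SM differences of -0.23 (implied SE 0.25) and -0.22 (implied SE 0.27) by the authors' deposited table did not pass, nor did the -0.09 (implied SE 0.20) of Lifr.

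**Figure D3:**
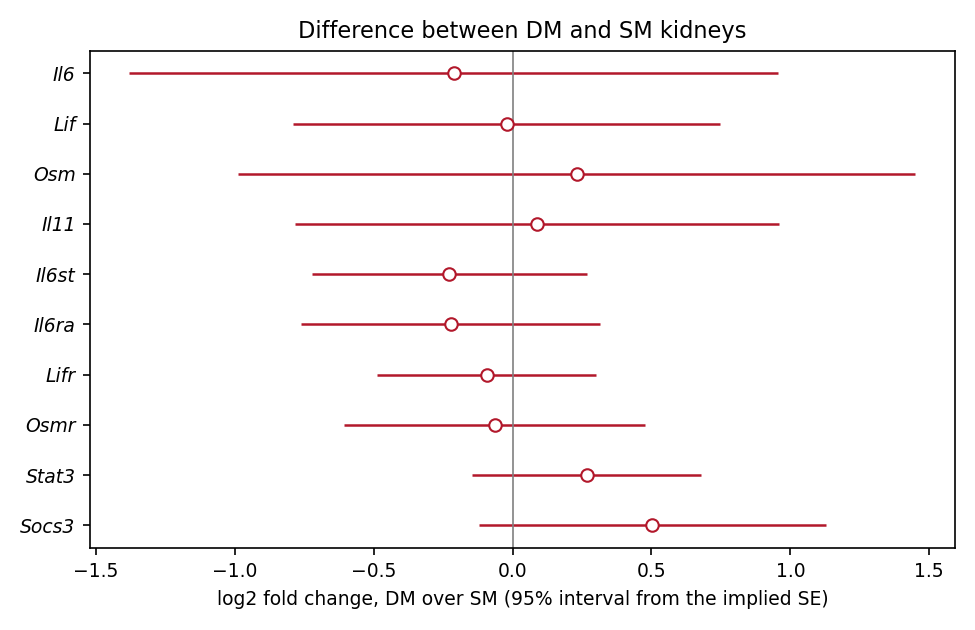
Log2 fold change of DM over SM (horizontal axis) of the 10 genes, with 95% intervals from the implied SE. Every interval includes 0. Those of Lifr and Stat3 are the narrowest and those of Osm and Il6 the widest.

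The miRNA that DM kidneys lack is shown with its seed, bases 2 to 8, in capitals (RefSeq, GRCm38.p6, chr11:86584120-86584141, reverse strand), because its complement ATAAGCT was searched in the 3′ UTRs of the 10 genes.

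miR-21a-5p: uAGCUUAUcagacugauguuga

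In the longest annotated 3′ UTR of each gene, 4 of the 10 held ATAAGCT on the transcript's strand: Stat3 at 2 places, and Il6, Il6ra and Il6st at 1 place each. The share among 12825 genes of at least 1 CPM, also by the longest 3′ UTR, was 8.12%. The Il6 place counts only through 1 of 4 transcripts, and it is coding sequence where the full interleukin-6 protein is encoded. The median 3′ UTR was 2487 bases long in the 10 genes and 1195 bases in that background, and longer UTRs have more room for a word of 7 bases. The places are shown with 11 bases on either side and the word in capitals, since these are the stretches that a direct effect of miR-21 would be looked for in.

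Stat3, chr11:100887212-100887218: ttagttatacaATAAGCTgaacttataaa

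Stat3, chr11:100886514-100886520: tctggagtcagATAAGCTccctaatggag

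Il6, chr5:30019439-30019445: tctcctaacagATAAGCTggagtcacaga

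Il6ra, chr3:89869089-89869095: tttgactttttATAAGCTaagtcaacaaa

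Il6st, chr13:112508456-112508462: aagtagaatcaATAAGCTgcaaaaaaaaa

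The word was in the 3′ UTR of only some coding transcripts of each gene, namely 2 of 4 for Stat3, 1 of 4 for Il6, 1 of 2 for Il6ra and 1 of 5 for Il6st. The Il6 stretch can be read in codons as LLTDKLESQ, a run of the interleukin-6 protein, so it is no 3′ UTR place in transcripts that encode that run. Of the genes with the word, Stat3 had a positive log2 fold change in DM against SM, 0.27, and Il6, Il6ra and Il6st had negative ones, -0.21, -0.22 and -0.23, by the authors' deposited table, and none was called. The word occurred in 1041 genes, whose median log2 fold change was -0.016 in DM against SM, and the median of the genes without it was -0.0037.

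Among the other ligands and receptors of the gp130 family, Clcf1 and Il27ra rose in both mutants, Ebi3 rose in SM and Il11ra1 fell in SM. Cntf, Il11ra2 and Il31 were at the level of a row without reads. Clcf1 encodes a ligand that signals through gp130 and Lifr with the receptor chain Cntfr. Clcf1 was at 26.3 CPM in DM and 21.7 CPM in SM, against 10.8 CPM in WT. The authors' deposited tables gave it 1.28 (with implied SE 0.23 and adjusted p = 2.21e-06) in DM against WT and 1.01 (with implied SE 0.23 and adjusted p = 3.81e-04) in SM against WT. Cntfr itself was not called, at -0.35 (implied SE 0.25) in DM against WT and -0.54 (implied SE 0.25) in SM against WT by the authors' deposited tables, nor was the ligand gene Ctf1, at 0.06 and 0.09.

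Il11ra1, the receptor chain for Il11, was called lower in SM against WT, at -0.64 (with implied SE 0.20 and adjusted p = 0.0155) by the authors' deposited table. In DM against WT it had -0.49 (with implied SE 0.20 and adjusted p = 0.0923) by the authors' deposited table. Il11ra2 is a near copy of this gene and stood at the lowest level, so how reads were divided between the copies is uncertain. Il27ra, which pairs with gp130 in the interleukin-27 receptor, rose by 1.21 (with implied SE 0.35 and adjusted p = 0.00636) in DM against WT and by 0.97 (with implied SE 0.35 and adjusted p = 0.0426) in SM against WT by the authors' deposited tables. Ebi3, a subunit of interleukin-27, was called in SM against WT, at 1.29 (with implied SE 0.42 and adjusted p = 0.0188) by the authors' deposited table, and did not pass in DM against WT, with an adjusted p of 0.0877.

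Other STAT genes and the remaining JAK kinase gene differed in both directions. Stat2, a factor of interferon signalling, rose by 1.16 (with implied SE 0.37 and adjusted p = 0.0152) and the kinase gene Jak3 by 0.76 (with implied SE 0.21 and adjusted p = 0.00455) in DM against WT by the authors' deposited table. Neither was called in SM against WT, at 0.28 (adjusted p = 0.795) for Stat2 and 0.46 (adjusted p = 0.150) for Jak3 by the authors' deposited table. Stat4, named after its values were seen, was called higher in both, at 1.47 in DM and 1.45 in SM by the authors' deposited tables. Stat5a, which acts below growth hormone and cytokine receptors, was lower in both, at -0.74 (adjusted p = 0.0252) in DM against WT and -0.80 (adjusted p = 0.0132) in SM against WT by the authors' deposited tables.

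Of 15 negative regulators other than Socs3, 2 were called higher in DM against WT, and 1 higher and 1 lower in SM against WT, by the authors' deposited tables. Socs2, an inhibitor of growth hormone signalling, stood at 21.0 CPM in DM and 20.7 CPM in SM, against 9.0 CPM in WT. It was 2.33-fold higher in DM against WT, with an adjusted p of 1.08e-05, and 2.30-fold higher in SM against WT, with an adjusted p of 1.47e-05, by the authors' deposited tables. Socs1, an inhibitor of interferon signalling, was called higher in DM against WT at 2.34 (with implied SE 0.61 and adjusted p = 0.00212) and had 0.97 (adjusted p = 0.363) in SM against WT by the authors' deposited tables. Socs5 was lower in SM against WT, at -0.57 (with implied SE 0.21 and adjusted p = 0.0404) by the authors' deposited table. All 15 averaged at least 1 CPM, where 19.8% of rows were called in DM against WT and 21.6% in SM against WT, so the share of this list was no larger than the background. The PIAS genes and the phosphatase genes Ptpn1, Ptpn2, Ptpn6 and Ptpn11 were not called in either comparison with WT.

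Genes known as STAT3 targets rose in number. Of 26, 16 were called higher and 0 lower in DM against WT, and 12 higher and 2 lower in SM against WT, by the authors' deposited tables. The share of all rows called higher was 7.55% in DM against WT and 7.87% in SM against WT. Of the 26, 24 averaged at least 1 CPM, where 19.8% and 21.6% of rows were called in either direction. The median log2 fold changes were 1.03 in DM against WT and 0.97 in SM against WT. In DM against SM, 0 of the 26 were called and the median was 0.03. Lcn2, the iron-binding protein NGAL, was the most changed of those named, at 196 CPM in DM and 250 CPM in SM, against 4.59 CPM in WT. Mcl1, a survival factor, was called in DM against WT at 0.72 (with implied SE 0.21 and adjusted p = 0.00697) by the authors' deposited table, with 0.52 (adjusted p = 0.0746) in SM against WT. The 2 targets that were lower in SM against WT were Vegfa, a growth factor for blood vessels, at -0.73 (with implied SE 0.22 and adjusted p = 0.0104), and the kinase gene Pim3, at -0.96 (with implied SE 0.31 and adjusted p = 0.0185), by the authors' deposited table. Many of these genes also answer to other factors, such as NF-kappaB and AP-1. The part of STAT3 in the counts was not tested.

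**Figure D4:**
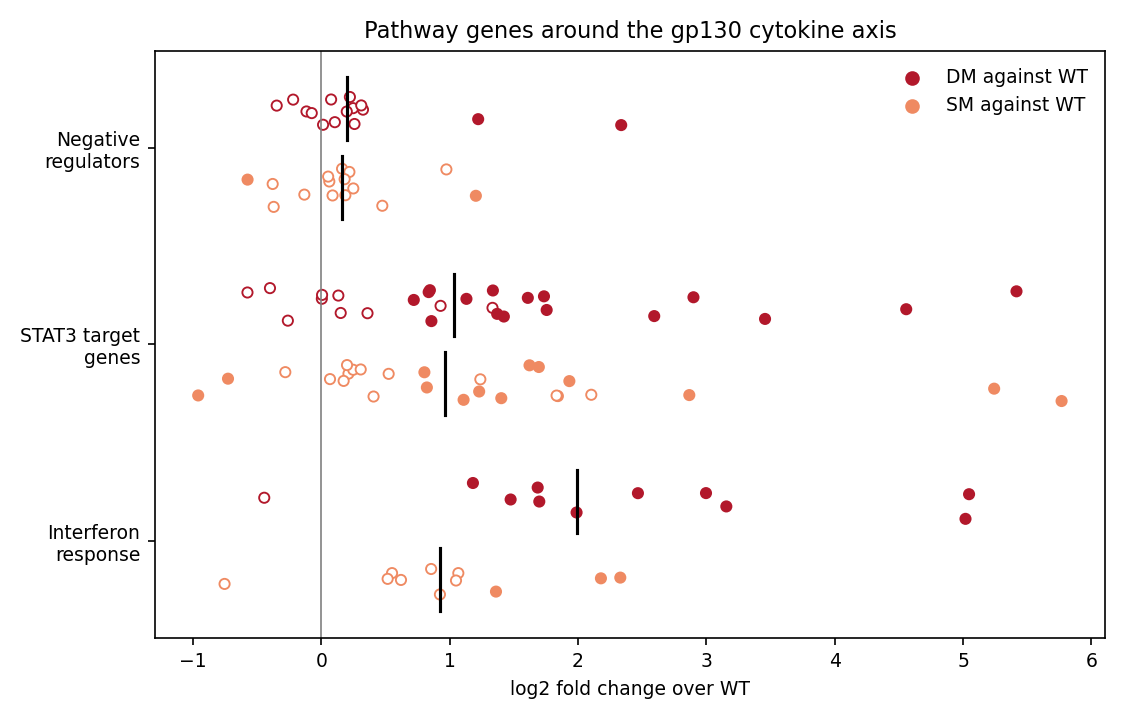
Log2 fold change over WT (horizontal axis) of the genes of 3 lists around the axis, in DM (dark red, upper row of each list) and SM (orange, lower row). Each point is 1 gene, filled where its adjusted p is below 0.05, and black bars are list medians, which are 1.03 in DM and 0.97 in SM for the STAT3 target genes and 1.99 in DM and 0.92 in SM for the interferon response genes.

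Interferon response genes were called higher for 10 of 11 members in DM against WT and for 3 of 11 in SM against WT by the authors' deposited tables. Gbp2, an interferon-induced GTPase, stood at 284 CPM in DM and 18.1 CPM in SM, against 8.77 CPM in WT. The 3 in SM were Cxcl10, Mx1 and Oas1a, named after their values were seen. Cxcl10, a chemokine that attracts T cells, stood at 49.98 CPM in DM and 6.85 CPM in SM, against 1.51 CPM in WT. None of the 11 was called in DM against SM, where Gbp2 had 3.97 (implied SE 1.0) with an adjusted p of 0.0714 by the authors' deposited table.

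Acute-phase genes that liver makes under interleukin-6 were mixed. Of 14, 2 were called higher and 2 lower in DM against WT, and 2 higher and 1 lower in SM against WT, by the authors' deposited tables. Of all rows, 13.5% were called in DM against WT and 14.0% in SM against WT. Of rows averaging at least 1 CPM, as 7 of the 14 did, 19.8% and 21.6% were called. The counts of this list were thus not far above the background. The fibrinogen genes Fga and Fgg rose. Fga stood at 106 CPM in DM and 103 CPM in SM, against 27.9 CPM in WT, and Fgg at 45.0 CPM in DM and 43.1 CPM in SM, against 6.98 CPM in WT. Their adjusted p by the authors' deposited tables was 2.72e-06 and 4.76e-10 in DM against WT, and 4.20e-06 and 1.06e-09 in SM against WT. The remaining fibrinogen gene, Fgb, did not pass, with 19.6 CPM in DM and 25.6 CPM in SM, against 9.59 CPM in WT, and an adjusted p of 0.274 for DM against WT and 0.083 for SM against WT by the authors' deposited tables. Serpina3k, a liver serpin, was lower in both, at 0.0949 CPM in DM and 0.00323 CPM in SM, against 7.04 CPM in WT, the SM level being under that of a row without reads. Apcs, serum amyloid P, was called lower in DM against WT with an adjusted p of 0.0391 by the authors' deposited table, at 0.0237 CPM in DM, which is also under the level of a row without reads, against 0.472 CPM in WT. Hepatocyte markers were lower as well, with 5 of 8 lower and 1 higher in DM against WT and 6 of 8 lower in SM against WT by the authors' deposited tables. Their summed level was 192 CPM in DM and 160 CPM in SM, against 341 CPM in WT. Alb, the albumin gene, stood at 1.03 CPM in DM and 0.328 CPM in SM, against 132 CPM in WT, and Ahsg, fetuin A, at 0.209 CPM in DM and 0.0818 CPM in SM, against 27.7 CPM in WT. Serpina1a was the marker called higher in DM. Ttr stood at 62.2 CPM in DM and 40.8 CPM in SM, against 86.4 CPM in WT. Hepatocytes are known to express Lifr, Il6ra, Il6st and Stat3, and the part of hepatocyte RNA in the values of these genes was not tested.

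Markers of cells known to make or answer these cytokines were counted as well. Of all rows, 13.5% were called in DM against WT and 14.0% in SM against WT. Of rows averaging at least 1 CPM, 19.8% and 21.6% were called. Macrophage and fibroblast counts were well above these shares in both comparisons. The neutrophil count in DM, and the T and NK cell and endothelial counts in SM, were near or below them. Macrophage markers were called higher for 9 of 10 measured members in DM against WT and for 10 of 10 in SM against WT by the authors' deposited tables, the exception in DM being Csf1r, and their summed level was 516 CPM in DM and 513 CPM in SM, against 141 CPM in WT. Fibroblast markers were called higher for 6 of 9 in both, with sums of 3106 CPM in DM and 3614 CPM in SM, against 1106 CPM in WT. Those called were Col1a1, Col1a2, Col3a1, Dcn, Acta2 and Postn, and Pdgfra, Pdgfrb and Lum were called in neither. By the authors' deposited tables, Pdgfra and Pdgfrb were both at -0.22 in DM against WT. They had 0.21 and 0.25 in SM against WT, and Lum had 0.43 in DM and 0.02 in SM. Neutrophil markers summed to 10.4 CPM in DM and 13.7 CPM in SM, against 7.62 CPM in WT, with 1 of 9 measured members called higher and 1 lower in DM against WT and 3 higher in SM against WT by the authors' deposited tables. The higher ones were Csf3r in both mutants, with S100a8 and S100a9 in SM, and the lower one was the granule gene Ltf. The neutrophil granule genes Mpo and Elane averaged 0.0692 and 0.0618 CPM, near the level of a row without reads, and Ly6g had no row of that name. T and NK cell markers were called higher for 4 of 10 measured members in DM against WT and for 1 of 10 in SM against WT by the authors' deposited tables, with sums of 19.7 CPM in DM and 11.5 CPM in SM, against 9.31 CPM in WT. Those called in DM were Lck, Gzmb, Cd3g and Cd8b1, and the one in SM was Lck. Gzmb, Cd3g and Cd8b1 averaged 0.963, 0.586 and 0.486 CPM, and Cd8b1 in WT, at 0.0505 CPM, was under the level of a row without reads. Its partner Cd8a was called in neither, at -0.24 in DM against WT and -1.22 in SM against WT by the authors' deposited tables. Endothelial cells were followed by 7 markers, of which Emcn, Tek and Kdr were the ones called, all in DM. They summed to 537 CPM in DM and 700 CPM in SM, against 757 CPM in WT, with 3 of 7 called lower in DM against WT and 0 of 7 called in SM against WT by the authors' deposited tables. The part of each cell type in the values of Osm, Il6, Lif and the other genes was not tested.

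Genes of like pattern were sought for Stat3, Socs3 and Osmr among 14037 named rows of at least 1 CPM, by the distance between pairs of log2 fold changes over WT. This measure rests on 3 group levels only. Nearest to Stat3 were Trim30d, Il27ra and Vcam1, at distances of 0.030 to 0.042. Nearest to Socs3 were Serpina10, Fcgr1 and Nlrp1b, at distances of 0.038 to 0.12, and nearest to Osmr were Cpt1c, Agap2 and Fam60a, at distances of 0.011 to 0.030.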

How the data were processed

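Whole kidneys of 10 mice were frozen, and RNA was sequenced from stranded total RNA libraries, per the labels' protocols. Without giving roles, the list of tools per the submitters' processing notes holds edgeR 3.2.4, Subread 1.4.6, featureCounts, Cufflinks, TopHat2 2.0.12 and bcl2fastq 1.8.4, and the build mm10. Per the file headers, the authors deposited 3 tables of 30431 rows with a p-value, its adjusted value, a likelihood ratio score, the log2 fold change and the average expression as log2 CPM. Tests of the tables showed that the averages are identical and that the adjusted values are Benjamini-Hochberg values over all rows. Depth and library values were not available for use here, so the planned fallback, the authors' own likelihood ratio test, was used and no counting interval is given. Replicates are separate animals by their labels.

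The implied SE is the absolute log2 fold change over the square root of the likelihood ratio. Group levels solve the average, read as the log2 of the mean CPM, for the fold changes. Exon lengths and positions are from GENCODE M21 (GRCm38), which may differ from the authors' assembled models. Promoter and miRNA sequences are from RefSeq (GRCm38.p6). Analyses used Python 3.11.15, numpy 2.4.6, pandas 2.3.3 and scipy 1.17.1.

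The members and lists were chosen with earlier results of these data known. All 10 members are named, and from each list the up to 4 called genes with the highest average, with their known partners. Alternatives were thresholds of 0.01 and 0.10, other sets of rows for the adjustment, centring, other readings of the average and a looser promoter word. Some members of the lists of gp130 ligands and of STAT genes are not reported here.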

Additional observations from a re-analysis of the deposited data

How the results depend on the processing

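The number of called members stayed within 6 to 8 in DM against WT and 6 to 10 in SM against WT, and at 0 in DM against SM, under thresholds of 0.01 and 0.10, adjustment over named rows or over rows of at least 1 CPM, and centring on the median. No direction changed. At 0.01, Lifr in DM against WT and Il6ra, Il6st and Osm in SM against WT no longer passed, and at 0.10 Lifr in SM against WT passed. Adjustment over rows of at least 1 CPM leaves out Il6 and Osm, which average less. Of all list genes, 1 passed in DM against SM at 0.10, namely Gbp2, against 0 at 0.05. Counts of calls in the lists described moved by over 1.5 times as follows. At 0.01, SM against WT had 1 interferon response gene (3 at 0.05), 1 negative regulator (2 at 0.05) and 0 T and NK cell markers (1 at 0.05), and DM against WT had 1 neutrophil marker (2 at 0.05). At 0.10, SM against WT had 5 acute-phase genes (3 at 0.05), 2 T and NK cell markers (1 at 0.05), 1 sheddase gene (0 at 0.05) and 1 endothelial marker (0 at 0.05). The looser promoter word was in 8.30% of promoters. Read as a mean of logs, the average gives levels 1.60 times higher for Socs3, 2.49 times for Lif and 3.13 times for Il6 in every group, with the fold changes as they were. Leaving out each replicate was not run, since the tables hold no library values. No paired analysis was possible because the animals' numbers are not shared between groups. Depth is unknown.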

Other observations

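Some genes of other cytokine systems that are known to signal through STAT3 were also called higher. In a list of 20 such genes written after the values of the 10 genes were seen, 5 were called higher and 0 lower in DM against WT, and 7 higher and 0 lower in SM against WT, by the authors' deposited tables. The share of all rows called higher was 7.55% in DM against WT and 7.87% in SM against WT. Of the 20, 8 averaged at least 1 CPM, where 19.8% and 21.6% of rows were called in either direction. The median log2 fold change was 0.98 in DM against WT and 0.93 in SM against WT. Il10ra, a chain of the interleukin-10 receptor, stood at 9.27 CPM in DM and 8.20 CPM in SM, against 2.49 CPM in WT, with adjusted p = 1.5e-05 and 1.16e-04 by the authors' deposited tables. Csf3r, the receptor of the neutrophil growth factor, rose by 1.19 (with implied SE 0.30 and adjusted p = 0.00124) in DM against WT and by 1.58 (with implied SE 0.30 and adjusted p = 6.01e-06) in SM against WT by the authors' deposited tables. Lepr, the leptin receptor and the most abundant called gene of the list, was called in SM against WT at 0.70 (with implied SE 0.23 and adjusted p = 0.0239), with 0.53 (adjusted p = 0.128) in DM against WT, by the authors' deposited tables. Il20, Il22 and Il21 stood at the level of a row without reads. Csf3r is also on the list of neutrophil markers above. The part of each cell type in the values of this list was not tested.

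Of the 10 genes, 4 lie on chromosome 11, the chromosome of the miR-21 gene, at distances of 14.3 Mb (Stat3), 31.4 Mb (Socs3) and 82.3 Mb (Lif and Osm). None of these was called in DM against SM by the authors' deposited table.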
